A study of Homo sapiens with 24 samples.

Results

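The libraries described here are the 9 A549 libraries of the series in which MCM7 RNA was at its normal level, out of 12 A549 libraries and 24 in all. A549 is a human lung adenocarcinoma line and A375, which gave the other 12 libraries, is a human melanoma line. In each line, parental cells and cells transduced with an shRNA against MCM7 (shMCM7) were sequenced without induction (noDox, labelled NT) or after doxycycline (Dox) at 1 μg/ml for 72 h, with 3 libraries in each of the 4 groups. All cells had been arrested by a double thymidine block, also the parental and the uninduced ones. The transduced cells were puromycin-selected populations carrying a lentiviral, Tet-controlled shRNA vector and were not single clones.

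The 9 libraries were split on their measured gene expression into a smaller set of 3 libraries, labelled sh_Dox_2, sh_NT_1 and wt_NT_3, and a larger set of 6 libraries, labelled sh_Dox_1, sh_NT_3, wt_Dox_1, wt_Dox_2, wt_Dox_3 and wt_NT_1 (sh for shMCM7, wt for parental). The split goes across the labels: each set holds libraries of both cell labels and both Dox labels. Because the sets were chosen by the measured log2 CPM of the genes compared here, their difference is described without a test, and tests are given only for comparisons by label and for the A375 cells, which had no part in the choice. In normalised values that accompany the study most of the A549 libraries carry other names than in the deposited labels. By those other names the smaller set would be uninduced shMCM7 cells, the larger set parental cells and the remaining A549 libraries, which have low MCM7 RNA, induced shMCM7 cells. Each A549 comparison by label below would then mix these groups. The deposited labels were kept for every group here, and which names are right was not tested.

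MCM7 is a subunit of the MCM2-7 helicase, the ring that is loaded onto DNA in G1 and unwinds it in S phase. A lentiviral shRNA line differs from its parent in more than the shRNA: it has integrated vector, has been selected with a drug and has passed through fewer founder cells, so that uninduced transduced cells serve as the control for the vector and the selection. The shRNA is shown because it defines which cells were meant to lose MCM7 RNA and only when induced. It lies in the MCM7 coding sequence, across the junction of exons 8 and 9 of ENST00000303887.9, at chr7:100097728-100097836 on the minus strand (GRCh38), and was found in 5 of 13 annotated MCM7 transcripts. The 5′ to 3′ sequence, which is target sequence throughout, is:
shMCM7: cagaggaggatttctacgaaa

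MCM7 was at 333, 329 and 339 CPM, a read count relative to the TMM-scaled library size, in sh_Dox_2, sh_NT_1 and wt_NT_3 of the smaller set. In the larger set it ranged from 299 to 330 CPM with a median of 319. In the other 3 A549 libraries, labelled sh_Dox_3, sh_NT_2 and wt_NT_2, it was 88.6 to 99.8 CPM, although the last 2 of these labels name cells without Dox and the last names parental cells; by the other names given above all 3 would be induced shMCM7 cells. These 3 are called the low-MCM7 libraries and were left out of the sets. Library totals were 17911000 to 23453000 counts in A549, so that the limit allowed by a count of 0, taken as 3 counts, was 0.128 to 0.167 CPM. For the cell markers in the rest of this paragraph, CPM is relative to the library total without TMM scaling. The keratins KRT7, KRT8 and KRT18 ranged from 1641 to 2733 CPM over the 9 libraries. The alveolar markers SFTPB (0 counts) and NKX2-1 (at most 1 count) were absent or nearly so. The melanocyte genes MLANA, TYR and SOX10, the fibroblast gene DCN and the leukocyte gene PTPRC were at 0 counts in all 9 libraries. Other genes of the same marker lists were expressed: MITF was at 36.2 to 51.1 CPM, PMEL at up to 1.28 CPM and COL1A1 at 9.34 to 20.3 CPM. The summed melanocyte markers were at 37.5 to 39.7 CPM in the smaller set and 39.9 to 52.3 CPM in the larger set, and the summed fibroblast markers at 10.9 to 15.02 and 10.8 to 21.9 CPM.

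Over all 13785 genes kept, each of the 9 libraries had its nearest neighbour in its own set, and the sets did not overlap on the first principal component (8.03 to 19.1 in the smaller set, −27.9 to 5.38 in the larger set). These values contributed to the choice of the sets. The root mean square log2 distance between 2 libraries was 0.23 to 0.28 within the smaller set, 0.22 to 0.38 within the larger set and 0.27 to 0.44 between the sets, so that the ranges of distances overlapped. The low-MCM7 libraries lay farther off, at 0.51 to 0.59 from the smaller set and 0.56 to 0.63 from the larger set. The first 2 principal components of the 9 libraries held 32.9% and 21.6% of the variance. On the first component the larger set itself was spread widely. There wt_NT_1 was at −27.9, sh_Dox_1 at −18.6 and sh_NT_3 at −7.29, but the 3 wt_Dox libraries were at 1.57 to 5.38, near sh_Dox_2 at 8.03. The first 3 of these libraries also had negative GC trends, described further on (−0.37, −0.35 and −0.10). The part of GC content in this component was not tested.

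A gene was taken to part the sets where no library of one set overlapped the other and the set means differed by at least 1.5-fold in log2 CPM. By this rule 113 genes (0.82% of those kept) were higher and 119 genes (0.863%) were lower in the smaller set. These are the values that define the sets, so nothing is read from the shares. Without any fold limit, 562 genes (4.08%) and 704 genes (5.11%) did not overlap. Without library sh_Dox_2 the counts were 187 higher and 241 lower genes, and 103 and 116 of the genes above were among them. The GC trend described further on moved with 2 libraries of the larger set; after a correction for it 96 genes were higher and 119 lower, of which 89 and 104 were as before. Among the 119 lower genes are 9 entries of the UGT1A locus, which are annotated with shared last exons and differed alike; how reads in shared exons were assigned is not known, and taken as 1 locus they leave 111 lower genes.

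The leading higher gene was SLITRK5 (chr13:87672615-87696272), a transmembrane leucine-rich repeat protein known from neurons. It was at 19.2, 19.3 and 19.98 CPM in the smaller set and at 4.56 to 5.84 CPM (median 5.29) in the larger set, a 3.68-fold difference. The low-MCM7 libraries were at 6.92 to 7.72 CPM, closer to the larger set. At SLITRK5 the 3 libraries of the smaller set therefore stood above all other A549 libraries; in bulk RNA, more cells with a transcript and more RNA per cell cannot be told apart. ASB4, a SOCS-box protein, and PORCN, the acyltransferase that attaches the lipid to Wnt ligands, were likewise high in the smaller set only among the A549 libraries. ASB4 was at 8.60, 9.47 and 10.6 CPM in the smaller set, 4.40 to 6.34 CPM in the larger set and 4.01 to 5.37 CPM in the low-MCM7 libraries. PORCN was at 17.8, 22.2 and 25.6 CPM against 9.98 to 13.3 CPM, with the low-MCM7 libraries below both at 8.83 to 9.58 CPM.

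Most of the other leading higher genes were high in the low-MCM7 libraries too. SUSD2, a membrane protein with a sushi domain, was at 47.5, 49.2 and 42.6 CPM in the smaller set and 14.5 to 26.2 CPM in the larger set, and the low-MCM7 libraries were above both at 81.4 to 122 CPM. The homeobox gene ALX4 was at 9.81, 10.6 and 8.55 CPM against 3.63 to 5.92 CPM, with 8.03 to 9.17 CPM in the low-MCM7 libraries. COL6A2, a chain of collagen VI, was at 18.5, 23.9 and 24.0 CPM against 6.96 to 12.3 CPM, with 19.4 to 33.5 CPM in the low-MCM7 libraries. Thus SUSD2, ALX4 and COL6A2 separated the larger set from all other A549 libraries without overlap. The bHLH factor ATOH8 was at 17.3, 13.8 and 17.5 CPM against 6.70 to 10.9 CPM, and the formin FHOD3 at 8.69, 9.52 and 9.73 CPM against 3.25 to 5.89 CPM. CRIP2, a LIM-domain protein, was at 26.4, 24.8 and 24.4 CPM against 9.08 to 17.5 CPM. SEMA6B, a transmembrane semaphorin, differed 2.02-fold and MOB3B 1.70-fold, and in both genes the low-MCM7 libraries lay on both sides of the midpoint between the sets.

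ITGB3, the β3 integrin subunit (chr17:47253846-47311816), and SLC16A6, a member of the monocarboxylate transporter family, showed a step inside the larger set. ITGB3 was at 11.2, 14.2 and 13.3 CPM in the smaller set. In the larger set it was at 10.996 and 10.3 CPM in sh_Dox_1 and sh_NT_3 but at 3.48 to 5.27 CPM in the 4 parental-labelled libraries. SLC16A6 was at 11.96, 12.7 and 12.3 CPM in the smaller set, at 11.2 and 8.72 CPM in sh_Dox_1 and sh_NT_3, and at 3.79 to 5.602 CPM in the 4 parental-labelled libraries. The pair labelled shMCM7 in the larger set thus lay next to the smaller set at these genes. AC068234.1, which overlaps ITGB3 on the same strand, had nearly the same pattern, and its counts may include reads of ITGB3.

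**Figure D1:**
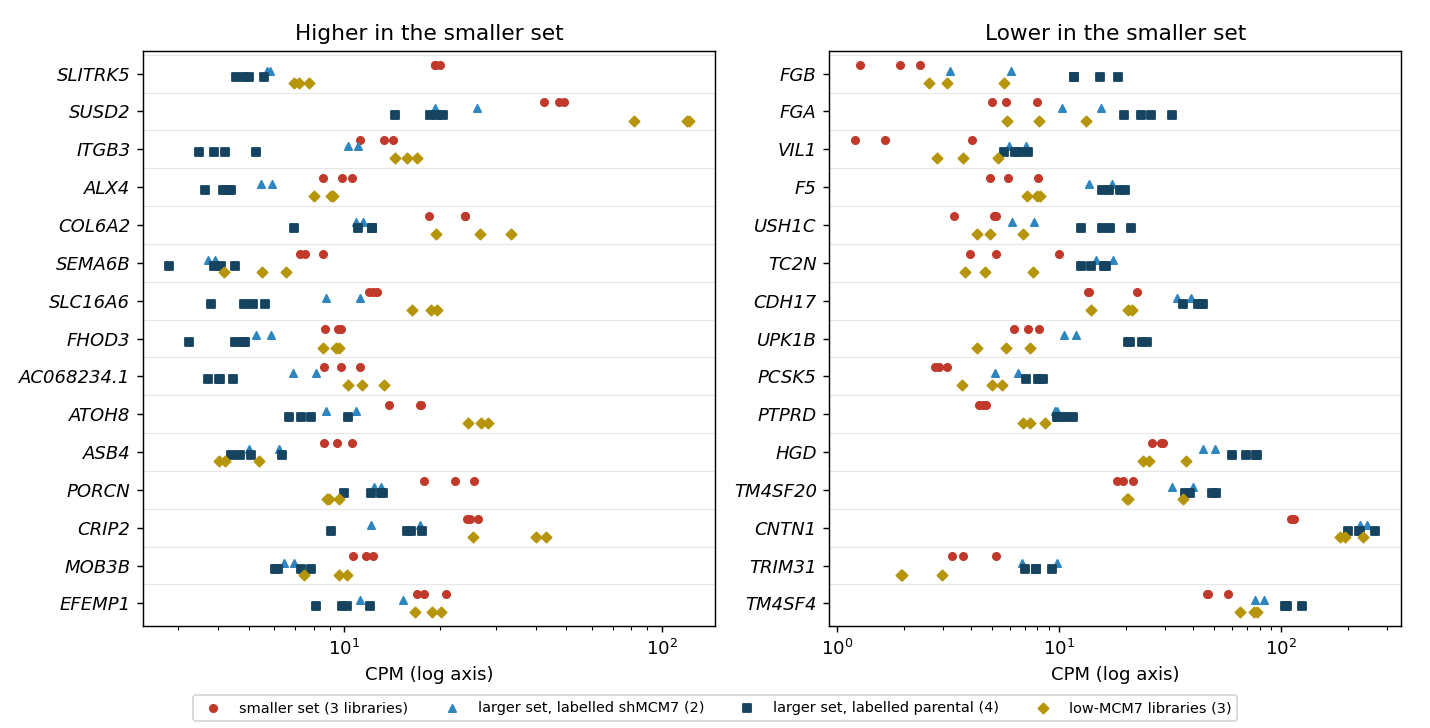
Expression in CPM (log axis) of the 15 genes with the largest difference in each direction among those with a mean of at least 5 CPM over the 9 libraries. Each point is 1 A549 library. The smaller set (red circles) does not overlap the larger set (blue), and at ITGB3, SLC16A6, FGB and USH1C the 2 shMCM7-labelled libraries of the larger set (triangles) lie between the 4 parental-labelled ones (squares) and the smaller set.

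The leading lower genes encode the 3 chains of fibrinogen, the clotting protein that is made mainly by hepatocytes and that lung epithelial cells can make in the acute phase. The 3 genes lie side by side on chromosome 4. FGB was at 1.92, 1.27 and 2.36 CPM in the smaller set and 3.24 to 18.5 CPM (median 11.7) in the larger set, a 5.12-fold difference. FGG was at 1.17, 1.10 and 0.991 CPM against 2.42 to 10.3 CPM, a 4.93-fold difference, and FGA at 7.99, 5.01 and 5.76 CPM against 10.3 to 32.2 CPM, a 3.20-fold difference. In all 3 genes the lowest libraries of the larger set were sh_Dox_1 and sh_NT_3, so that the 4 parental-labelled libraries were the highest. At FGB the low-MCM7 libraries, at 2.60 to 5.67 CPM, lay above the smaller set and overlapped the lower end of the larger set.

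Several other lower genes are known from liver, gut or urothelium. F5, coagulation factor V, was at 8.03, 5.89 and 4.91 CPM in the smaller set and 13.7 to 19.9 CPM in the larger set. CDH17, the liver-intestine cadherin, was at 22.6, 13.5 and 13.7 CPM against 34.0 to 44.6 CPM. VIL1, the actin bundler of microvilli, was at 4.06, 1.21 and 1.65 CPM against 5.68 to 7.24 CPM. In these 3 genes sh_Dox_2 was the highest library of the smaller set. HGD, an enzyme of tyrosine breakdown, was at 26.3, 28.8 and 29.4 CPM against 44.6 to 77.7 CPM, and UPK1B, a uroplakin, at 6.26, 8.09 and 7.27 CPM against 10.5 to 24.9 CPM. USH1C, which encodes the microvillar scaffold harmonin, was at 3.36, 5.12 and 5.19 CPM against 6.11 to 21.1 CPM. The tetraspan genes TM4SF4 and TM4SF20 differed 1.98-fold and 2.06-fold, and TC2N and the ubiquitin ligase gene TRIM31 differed 2.53-fold and 1.99-fold. At F5, CDH17, HGD, UPK1B, USH1C, TC2N and TRIM31 all 3 low-MCM7 libraries lay on the side of the smaller set.

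At CNTN1 and PTPRD the smaller set was the lowest and all 3 low-MCM7 libraries lay on the side of the larger set. CNTN1, a cell adhesion molecule of neurons, was at 111, 114 and 114 CPM in the smaller set, 201 to 266 CPM in the larger set and 183 to 235 CPM in the low-MCM7 libraries. PTPRD, a receptor tyrosine phosphatase, was at 4.53, 4.68 and 4.34 CPM against 9.63 to 11.5 CPM, with 6.87 to 8.62 CPM in the low-MCM7 libraries. These 2 genes had the narrowest spread within sets of the 15 lower genes, with an SD of 0.11 and 0.09 on the log2 scale. PCSK5, a proprotein convertase, was at 2.76, 3.14 and 2.88 CPM against 5.16 to 8.47 CPM.

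HNF4A, a transcription factor of liver and gut epithelium that was looked up after the values were seen, was at 21.7, 24.3 and 23.6 CPM in the smaller set and 28.2 to 36.7 CPM in the larger set, without overlap. It was at 19.6 to 24.8 CPM in the low-MCM7 libraries. Promoter windows with an arm of the HNF4 site, CAAAGT or its reverse complement ACTTTG, are shown for 3 of the lower genes named above. ASB4 is shown as a gene that was higher. The windows were picked among those with a match, and PTPRD also had one. No match was found for F5, FGA, FGB, FGG, UPK1B, TM4SF4, TM4SF20, CNTN1 or PCSK5. USH1C and TC2N each have another transcription start without a match. CDH17 was not among the windows read. The motif was searched on both strands in the 250 bases before each start. The windows are 30 bases each from RefSeq (GRCh38.p14), 5′ to 3′ on the gene's strand, with the 6 letters of the motif in capitals. They lie at chr11:17533959-17533988 (USH1C, minus strand), chr14:91867591-91867620 (TC2N, minus strand), chr6:30113128-30113157 (TRIM31, minus strand) and chr7:95485851-95485880 (ASB4, plus strand).
USH1C: cattgacgtcaaCAAAGTtgaaatgatgta
TC2N: accacacacctcACTTTGctgttggctgtg
TRIM31: atacctttagtcCAAAGTtcaggacaactt
ASB4: cggatcagcataACTTTGggataaaattag

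The HNF4 motif was present for 15 of 94 lower genes with a promoter in the table (16%), 7 of 72 higher genes (9.72%) and 9.82% of the 10519 kept genes. It stood in 10.3% of all 35116 promoters. An arm of the HNF1 site, GTTAAT or ATTAAC, was searched in the same way. It was present for 17 of the 94 lower genes (18.1%), 6 of the 72 higher genes (8.33%) and 5.35% of the kept genes. Without the UGT1A entries it was present for 13 of 86 lower genes (15.1%). FGA and FGB had an HNF1 match and FGG had none. The promoters of the lower genes were also poorer in GC, with a median of 55.2% against 64.4% over kept genes, and the part of base composition in the shares was not tested. A match is a run of letters and not a bound site.

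Gene lists were read by their members. All kept genes had a median difference of −0.01 on the log2 scale, with 6624 higher and 7161 lower in the smaller set. Of 9 kept apolipoprotein and acute phase genes all 9 were lower (median −0.52), and 3 parted the sets, namely FGA, FGB and FGG. Without sh_Dox_2 the median was −0.85 and 5 members parted the sets, and with no filter 13 of 18 were lower (median −0.20). Of 22 epithelial junction and keratin genes 19 were lower (median −0.18), and 6 parted the sets without sh_Dox_2. CLDN2, which forms a cation-selective tight junction pore, was the 1 member that parted the sets, just at the fold limit and below it with DESeq2 size factors or library totals, at 95.8, 74.3 and 66.0 CPM against 109 to 131 CPM. CDH1, which encodes E-cadherin, was at 55.3 to 76.3 CPM in the smaller set and 55.8 to 69.6 CPM in the larger set. After GC correction the medians of the 2 lists were −0.47 and −0.20.

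Of 24 collagen and collagen processing genes 16 were higher (median 0.15), 9 of them without overlap. The median was 0.09 after GC correction, without sh_NT_1 or without the shMCM7-labelled pair of the larger set. COL4A2 was at 194 to 215 CPM in the smaller set and 124 to 178 CPM in the larger set, and COL6A1 at 40.1 to 46.6 CPM against 22.7 to 35.3 CPM. COL11A1 went the other way, at 3.97 to 4.72 CPM against 6.48 to 10.98 CPM. Of 20 mesenchymal genes 14 were higher (median 0.07, from 0.04 without wt_NT_3 to 0.13 without sh_Dox_2), and SPARC, SNAI2 and CDH11 parted the sets. SPARC, a matricellular protein, was at 4.02, 3.96 and 3.59 CPM in the smaller set, 1.61 to 2.28 CPM in the larger set and 23.1 to 29.7 CPM in the low-MCM7 libraries. SNAI2, a repressor of E-cadherin, was at 1.21, 1.76 and 2.17 CPM against 0.31 to 1.19 CPM. VIM, which encodes vimentin, was at 1049 to 1120 CPM in the smaller set and 1022 to 1088 CPM in the larger set. Of 28 genes for matrix glycoproteins and proteoglycans 15 were higher (median 0.04, and 0.01 after GC correction or without sh_Dox_2). SPARC and EFEMP1 parted the sets upward, and LUM, which encodes lumican, downward at 0.187 to 0.385 CPM against 0.730 to 1.33 CPM.

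Of 30 NRF2 target genes 22 were lower (median −0.05) and 8 lay without overlap below the larger set. A549 cells carry a KEAP1 mutation and express these genes at high level. GPX2, a glutathione peroxidase, parted the sets at 326, 229 and 223 CPM against 340 to 453 CPM. AKR1C1 was at 395 to 425 CPM against 514 to 644 CPM, whereas NQO1, the standard NRF2 target, was at 1665 to 1734 CPM against 1641 to 1878 CPM and overlapped. UGT1A6 stands for the UGT1A locus, whose 9 entries differed 1.85-fold to 1.98-fold and were at 29.8 to 48.4 CPM in the smaller set and 55.8 to 97.4 CPM in the larger set. Of 17 integrin genes ITGB2 and ITGB3 parted the sets upward, but the median of 0.09 turned to −0.002 after GC correction, to −0.01 without wt_Dox_1 and to −0.01 without wt_Dox_3. In interferon, NF-κB, TGF-β, Wnt and neuronal lists 1, 1, 1, 1 and 2 genes parted the sets upward, which were IFI44, IL6, BMP7, TNFRSF19, and the pair SCG2 and CRMP1. No member parted the sets in the lists of G1/S and replication genes (39 genes, median −0.0004), cytosolic ribosomal proteins (72 genes, median −0.03) and p53 targets (26 genes, median 0.07, and 0.03 without sh_Dox_2). The sign of the first of these medians changed with the scaling.

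**Figure D2:**
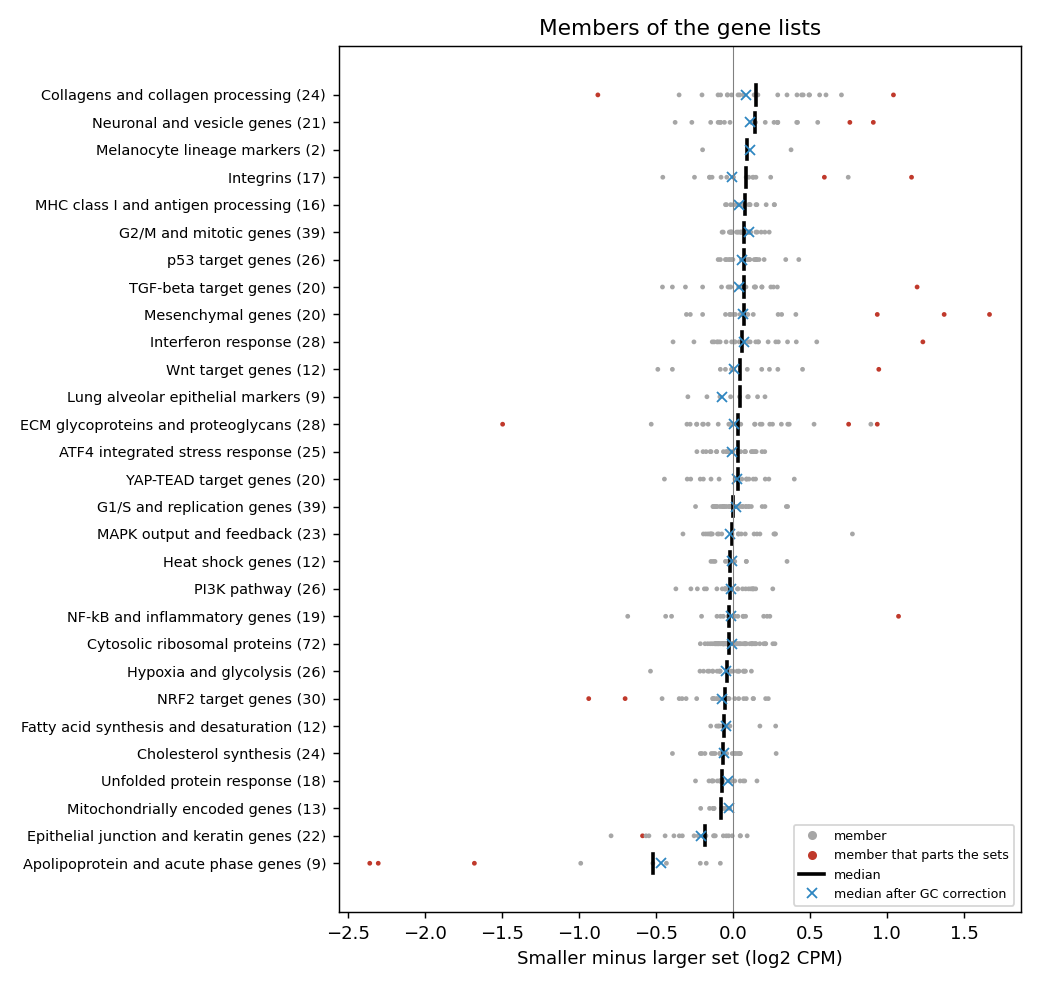
Difference of the smaller minus the larger set in log2 CPM for each kept member (points) of the gene lists, with the number of members in parentheses. Black bars are the list medians and blue crosses the medians after GC correction; the apolipoprotein and acute phase list lies lowest at −0.52 and the collagen list highest at 0.15.

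The low-MCM7 libraries had no part in the choice of the sets. Of the 113 higher genes, 67 (59.3%) had all 3 low-MCM7 libraries on the side of the smaller set and 24 (21.2%) had all 3 on the side of the larger set. Of the 119 lower genes the numbers were 53 (44.5%) and 27 (22.7%). Over all kept genes, 37.7% had all 3 on the smaller side and 37.3% on the larger side. At 28 higher and 20 lower genes the low-MCM7 libraries lay beyond the range of the smaller set, as at SUSD2 and TRIM31. How often this holds over all kept genes was not computed. Over those genes the low-MCM7 libraries lay farther from each set than the sets lay from each other. Nothing is therefore read from these counts.

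A position was computed for each library as its mean place between the larger-set mean (0) and the smaller-set mean (1) over the genes that part the sets. At the higher genes the low-MCM7 libraries were at 0.98 to 1.02. At the lower genes sh_Dox_3 was at 0.91, sh_NT_2 at 0.83 and wt_NT_2 at 0.49. For the 6 libraries of the larger set, sh_Dox_1 was at 0.19 and 0.22 over higher and lower genes and sh_NT_3 at 0.14 and 0.15, while wt_NT_1 was at −0.13 and −0.24. The 3 libraries labelled wt_Dox were at −0.07 to −0.01 and at −0.14 to 0.03. At the genes that part the sets, the 2 shMCM7-labelled libraries of the larger set were thus both nearer to the smaller set than the 4 parental-labelled libraries were. This did not hold over all kept genes. There the median root mean square log2 distance to the smaller set was 0.373 in sh_Dox_1 and 0.335 in sh_NT_3. It was 0.309 to 0.333 in the 3 wt_Dox libraries and 0.414 in wt_NT_1. The 2 shMCM7-labelled libraries lay outside the range of the 4 parental-labelled ones, toward the smaller set, at 32 of the 113 higher genes (28.3%) and 48 of the 119 lower genes (40.3%). Over all kept genes they lay above the 4 at 9.58% and below at 9.47%. The genes that part the sets were chosen by the values of these same libraries, so the shares are not like with like. Nothing about the labels is read from the positions of the larger set or from these shares.

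**Figure D3:**
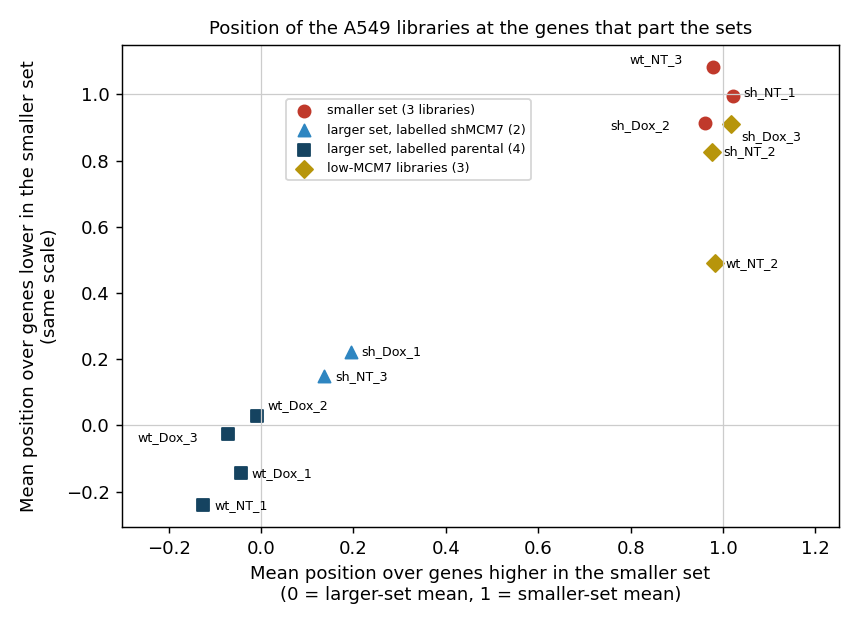
Mean position of the 12 A549 libraries over genes higher (horizontal axis) and lower (vertical axis) in the smaller set, where 0 is the larger-set mean and 1 the smaller-set mean. On the horizontal axis the larger set lies at −0.13 to 0.19 and the low-MCM7 libraries at 0.98 to 1.02; on the vertical axis the larger set lies at −0.24 to 0.22 and wt_NT_2 at 0.49.

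Differences by deposited label were tested by edgeR's quasi-likelihood fit. A gene was called at a fold of at least 1.5, p below 0.01 and a Benjamini-Hochberg adjusted p below 0.05. These fits compare labels and not the sets. The sets cross the labels, so the fits cannot decide whether the split follows them. Between uninduced shMCM7 and parental A549 libraries by label, 3 against 3, no gene of 13505 was called (0%), and 101 genes had an unadjusted p under 0.05; DESeq2 called none either. These 6 include 2 low-MCM7 libraries, 1 on each side. Between the 4 shMCM7-labelled and the 5 parental-labelled libraries of the 9, no gene of 13556 was called (0%), with a smallest adjusted p of 0.242 (1019 genes had an unadjusted p under 0.05). DESeq2's Wald test called 4 genes higher and 12 lower in this comparison. Between Dox and noDox labels in the 9 libraries no gene was called (0%), with 218 at an unadjusted p under 0.05, and DESeq2 called none. The smallest p values by cell label belonged to ADM, the gene of the vasodilator peptide adrenomedullin, EFHB and KCNJ16, an inward-rectifier potassium channel, all lower with the shMCM7 label and none parting the sets.

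The comparison by cell label changed without library wt_NT_3, the parental-labelled member of the smaller set. Without it edgeR called 10 genes higher and 23 lower in shMCM7-labelled libraries. The smaller set then holds shMCM7-labelled libraries alone, so that this comparison largely repeats the split that chose the sets, and nothing is read from its calls. Leaving out any other library of the 9 gave no call. With all 9 libraries FGB had a log2 fold change of −1.93 ± 0.52 (SE, adjusted p = 0.435) and ITGB3 one of 0.94 ± 0.34 (SE, adjusted p = 0.556).

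The A375 cells give uninduced shMCM7 against parental cells with values that did not choose the sets. MCM7 in A375 was at 353 and 359 CPM in 2 of the 3 uninduced shMCM7 libraries, but at 131 CPM in replicate 1, against 342 to 352 CPM in parental noDox cells, so that 1 library labelled uninduced stood apart. The edgeR fit called 189 genes higher (1.17%) and 77 lower (0.478%) in uninduced shMCM7 A375 cells out of 16093, and a fit blocked on replicate number called 335 higher and 149 lower genes. Without shMCM7 noDox replicate 1 it called 256 higher and 65 lower, and without parental noDox replicate 2 it called 134 and 39. The smallest p values belonged to SPANXB1, SH3GL2 and MARCH4, none of which parted the A549 sets.

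In the A549 sets the genes called in A375 lay on both sides. Of the 189 higher genes 118 were kept in A549, and 56 of these (47.5%, exact binomial 95% interval 38.2 to 56.9 over genes, which are not independent) were higher in the smaller set, with a median of −0.04. Of the 77 lower genes 34 were kept, and 22 were lower and 12 higher in the smaller set (35.3% higher, interval 19.7 to 53.5), with a median of −0.10. Over all 13471 genes measured in both lines 48.3% were higher. With the A375 calls of the blocked fit, 86 of 189 kept higher genes (45.5%) and 20 of 53 kept lower genes (37.7%) were higher in the smaller set. With the calls made without shMCM7 noDox replicate 1, the replicate with low MCM7, 74 of 163 kept higher genes (45.4%) were higher there. Of 29 kept lower genes 7 (24.1%) were higher and 22 lower, with a median of −0.16. The share of the lower genes thus moved with this replicate, and the cause was not tested. Across the 13471 genes Pearson's r between the 2 differences was −0.01 and Spearman's rho 0.0002, as a description over genes.

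Some genes that part the A549 sets were among the A375 calls, in both directions. Both lists require a fold of at least 1.5, and the parting genes were chosen by the values that define the sets. Their shares and those of all genes are therefore not like with like, and no link between the lines is read from them. Of the 110 higher genes tested in A375, 6 were called higher and 3 lower (8.18% called), and of the 81 lower genes 4 were called higher and 5 lower (11.1%), against 1.13% of all genes measured in both. Of the 118 kept A375 genes called higher, 6 (5.08%) were among the higher and 4 (3.39%) among the lower genes of the smaller set. Of the 34 called lower these numbers were 3 (8.82%) and 5 (14.7%). Over all genes measured in both lines the shares were 0.817% and 0.601%. PXDN, the peroxidasin that crosslinks collagen IV, was higher in both: 4.95, 5.17 and 5.24 CPM against 1.41 to 2.33 CPM in A549, and 27.5, 26.1 and 30.1 CPM against 14.6 to 18.7 CPM in A375 (log2 fold change 0.69 ± 0.10, SE, edgeR adjusted p = 0.00387). SUSD2 was also higher in both (0.63 ± 0.11 in A375, adjusted p = 0.017), as were GGT5, NHSL2, CRMP1 and IL6. The calls of SUSD2, BMP7, SEMA6B and ITM2A were lost without the replicate with low MCM7, with unchanged sign, and those of PXDN, SUSD2, EPHB6, BMP7, SEMA6B, ITM2A and C1orf116 without parental noDox replicate 2.

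The gene with the largest A375 change among those that part the A549 sets went the opposite way. MYOCD, the coactivator of smooth muscle genes, was at 1.20, 1.78 and 1.51 CPM in uninduced shMCM7 A375 cells and at 0.04 to 0.09 CPM in parental ones, but at 1.26, 1.98 and 1.70 CPM in the smaller and 2.15 to 4.58 CPM in the larger A549 set. PTPRD was called higher in A375 (log2 fold change 3.64 ± 0.30, SE, adjusted p = 0.000148) and was lower in the smaller A549 set. BMP7, a ligand of the TGF-β superfamily, was lower in shMCM7 A375 cells (−0.62 ± 0.12, adjusted p = 0.0249) and higher in the smaller A549 set at 5.09, 4.24 and 2.60 CPM against 1.04 to 2.26 CPM. SEMA6B and EPHB6 went the same ways as BMP7. CNTN1 (−2.48 ± 0.22 in A375, adjusted p = 0.000207), RNF128, ZNF704, PARM1 and GALNT5 were lower in both lines. SLITRK5 was at 12.5, 26.1 and 30.5 CPM in uninduced shMCM7 A375 cells against 10.0 to 12.2 CPM in parental ones. It was not called in the edgeR fit without the replicate block (adjusted p = 0.0596). Its lowest value in the shMCM7 cells came from the replicate with low MCM7. FGA and FGB did not pass the filter on low counts in A375, and FGG did not differ detectably there (log2 fold change −0.10 ± 0.44, SE, adjusted p = 0.939).

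**Figure D4:**
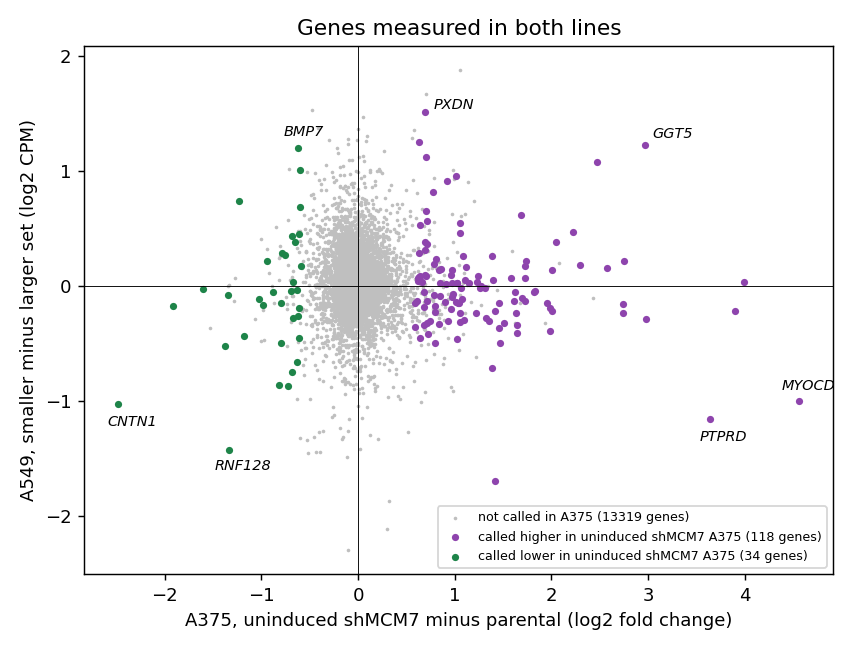
Log2 fold change of uninduced shMCM7 against parental A375 cells (horizontal axis) and difference of the smaller minus the larger A549 set in log2 CPM (vertical axis) for the 13471 genes measured in both lines. The 118 genes called higher (purple) and 34 called lower (green) in A375 lie on both sides of 0 on the vertical axis.

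Base composition differed between the libraries and moved with part of the difference. In 4 classes of nearly equal size of genes by the GC content of their longest transcript, the median difference between the sets was −0.05, −0.05, 0.01 and 0.13 on the log2 scale from the GC-poorest to the GC-richest class. Of the genes that part the sets, 18, 24, 31 and 40 were higher and 38, 45, 27 and 9 lower in these classes. The trend differed between libraries of the larger set. The median deviation of the richest minus the poorest class was −0.35 in sh_Dox_1, −0.37 in wt_NT_1 and −0.10 in sh_NT_3, but 0.13 to 0.18 in the 3 wt_Dox libraries, near the 0.08 to 0.16 of the smaller set. The correction used a lowess curve of each library's deviations on GC content. After it the differences of the named genes kept their sign, and that of SEMA6B moved from 1.01 to 0.76.

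By chromosome the median difference ran from −0.09 on chromosome 2 to 0.10 on chromosome 19. After GC correction chromosome 19 was at 0.01 and chromosome 2 was at −0.06, the lowest of all chromosomes. The next lowest was chromosome 12 at −0.01. Chromosome 2 held 25 of the 119 lower genes, the 9 UGT1A entries included, and chromosome 4 held 17. Of 539 runs of 25 neighbouring kept genes, the lowest median (−0.17) was that of the run from PTMA to MROH2A on chromosome 2. This run holds the UGT1A locus. The lowest run on any other chromosome was that from TRPA1 to SLC10A5 on chromosome 8 (−0.11). All runs with lower medians lay on chromosome 2, at several places along it.

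**Figure D5:**
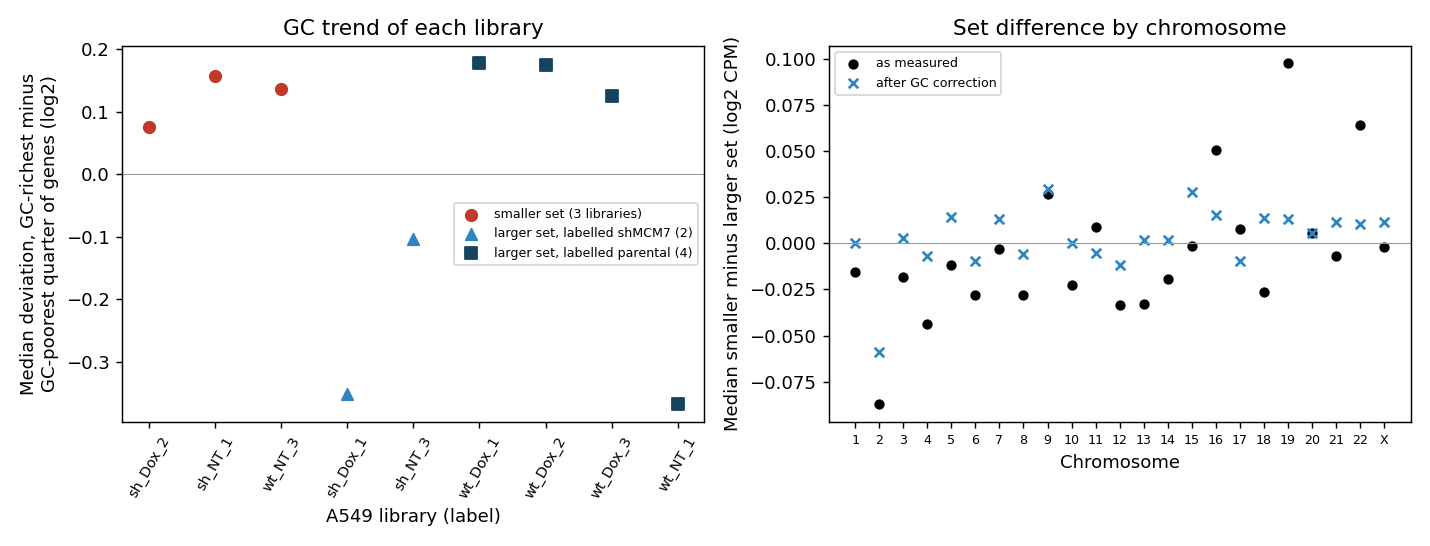
Left, median deviation of the GC-richest minus the GC-poorest class of genes (log2) in each of the 9 libraries. Right, median difference of the smaller minus the larger set (log2 CPM) by chromosome, as measured (black) and after GC correction (blue); chromosome 2 lies at −0.09 and −0.06.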

How the data were processed

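RNA was sequenced from parental and shMCM7 A549 and A375 cells, which the study describes as biological replicates. Per the labels, the authors used bcl2fastq 2.19, Trimmomatic, STAR 2.7.1, featureCounts and edgeR with build GRCh38.p10, and deposited raw read counts per gene, 1 table per library; strand and counting settings are not given in the sources used here. Of 21386 identifiers 21349 were matched to GENCODE 29, which named them and gave lengths and GC content. Groups follow the deposited labels; names that accompany the study differ for most A549 libraries.

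Counts were scaled by TMM over the 12 A549 libraries and written as log2 CPM with a prior count of 2, after edgeR's filter on low counts by label group. Comparisons by label were fitted with edgeR's quasi-likelihood test. R 4.3.3 was used with edgeR 4.0.16 and DESeq2 1.42.0; the steps were tested on simulated data. The members and gene lists were chosen with earlier results of these data known. Named genes are the 15 with the largest difference in each direction among those that part the sets with a mean of at least 5 CPM over the 9 libraries. List members that part the sets, up to 10 genes per direction also called in A375, and the 3 smallest p values per test are named too. Apart from MCM7 and the cell markers, other genes were looked up afterwards, among them HNF4A, COL4A2, COL6A1, AKR1C1, CDH1, VIM and NQO1. In A375 the replicate numbers paired the libraries (correlations of same-numbered deviations 0.32, 0.21 and 0.34). The fold changes, SEs and adjusted p values given for single A375 genes are nevertheless from the fit without the replicate block. Alternatives were another scaling, filter, prior count and fold limit, DESeq2, a replicate block, leaving out each library and, chosen after seeing the data, the GC correction, the sets without the shMCM7-labelled pair and the blocked A375 calls. A375 libraries held 146.7 to 283.7 M counts (M, mega). Limits at a count of 0 cover counting error only; the binomial intervals are over genes.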

Additional observations from a re-analysis of the deposited data

Results flagged for a closer look

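Library wt_NT_1 stood apart from the other 5 libraries of the larger set at 2 of the 58 genes checked by Dixon's criterion, which compares the gap to the nearest library with the whole range. COL6A2 was at 6.96 CPM in wt_NT_1 and at 10.9 CPM in the nearest library, a ratio of 0.746. PORCN was at 9.98 CPM in wt_NT_1 and at 12.1 CPM in the nearest library, a ratio of 0.644. In both genes the library lay on the far side from the smaller set. The same library had the steepest GC trend of the 9 (−0.37), and the part of that trend in the 2 values was not tested. At this limit chance alone marks about 1 in 20 groups.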

How the results depend on the processing

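No named gene changed direction, but the balance of genes that part the sets did. It was 113 higher against 119 lower as first given, 123 against 111 with library totals only and 168 against 128 without wt_NT_3. Medians of gene lists changed direction too. Without sh_Dox_2 the mitochondrially encoded genes turned to 0.05 and the interferon list to −0.01, and the integrin list turned negative as described above. Small medians of other lists (G1/S, NF-κB, MAPK, heat shock, PI3K, ribosomal, ATF4, Wnt, alveolar and melanocyte genes) also changed sign under at least 1 setting. In A375, the replicate block gave 335 genes higher and 149 lower, and leaving out 1 library gave 134 to 256 higher and 39 to 66 lower, with the fewest lower genes without parental noDox replicate 2 (39), replicate 3 (40) and shMCM7 noDox replicate 2 (50). By cell label in the 9 A549 libraries, DESeq2's Wald test called 4 higher and 12 lower, and leaving out 1 library gave 0 to 10 higher and 0 to 23 lower, all of these calls being those without wt_NT_3. For the sets, 181 genes were higher with no filter, 72 with at least 10 counts in every library, 29 higher and 42 lower at a fold of at least 2, and 183 and 185 without the pair labelled shMCM7 in the larger set. Leaving out 1 library gave 114 to 187 higher and 119 to 241 lower, the most without sh_Dox_2. At a fold of at least 2, all 3 low-MCM7 libraries lay on the smaller side at 16 higher and 17 lower genes. The causes of these changes were not tested. Fewer or more samples and genes enter by construction where libraries or filters change.

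By label, same-numbered uninduced A549 libraries had correlations of deviations of 0.21, 0.83 and 0.04, and 1 of 3 correlated best with its own number, so the number was not taken as a pairing; the replicate block called 0 genes there and in the other A549 comparisons by label. Without sh_Dox_2, the log2 differences of VIL1 and ZNF704 moved by more than the spread within sets, away from 0. Genes near or under 1 CPM rest on few counts per library, which limits the precision of their folds.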

Other observations

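The protocadherin gamma genes, neuronal adhesion molecules that share their last exons, were all higher in the smaller set. All 22 kept entries lay without overlap above the larger set, by 0.35 to 0.49 on the log2 scale, and none passed the 1.5-fold limit. Their counts may include the same reads, since the assignment of reads in shared exons is not known, and the run of 25 genes that holds many of them had the highest median of the 539 runs (0.42).

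Of 39 G2/M and mitotic genes 30 were higher in the smaller set (median 0.07, from 0.04 without wt_Dox_1 to 0.12 without the shMCM7-labelled pair of the larger set). Of 16 MHC class I and antigen processing genes 13 were higher (median 0.08, and 0.04 after GC correction or without sh_Dox_1), with no member of either list parting the sets. The 13 mitochondrially encoded genes had no stable direction: all 13 were lower in the smaller set (median −0.07), but without sh_Dox_2 12 of 13 were higher (median 0.05).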
